A study of Mus musculus with 16 samples.

Results

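The 5 genes of the muscarinic acetylcholine receptors, Chrm1 to Chrm5, were followed together with Mdk, which encodes the secreted growth factor midkine and whose annotation meets that of Chrm4 on chromosome 2. These 6 genes, of 17097 with values, were taken by their symbols, and they were chosen from the ratio of captured to whole-tissue RNA, in which Chrm4 stood high. The ratios between captured and whole-tissue RNA are therefore given below as a description, without a test. All 6 genes passed the filter on low values.

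The libraries came from whole striatum of male C57BL/6J mice labelled wild-type, at postnatal day 63. Each mouse had received vehicle or 1 mg/kg clozapine N-oxide (CNO) 2 h earlier. From each mouse 1 library was made from cleared lysate (input) and 1 from RNA precipitated through a hemagglutinin tag on astrocyte ribosomes (IP), which gives 4 groups of 4 libraries, vehicle IP, CNO IP, vehicle input and CNO input, numbered 2 to 5. The series text speaks of 4 mice, but the titles carry 8 mouse codes, 4 per injection, and these were taken as animals. If the codes do not stand for separate animals, the p-values speak only of the spread among libraries, which may be technical. The labels name neither the receptor on which CNO was to act nor the promoter or virus behind the tag, and no group is labelled as given CNO without such a receptor. The files hold 1 value per gene symbol, so RNA of a mouse receptor gene and RNA of a receptor transgene with like sequence, were one present, cannot be told apart in them.

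Muscarinic receptors are G protein-coupled receptors for acetylcholine, which in the striatum is released by the cholinergic interneurons. The products of Chrm1, Chrm3 and Chrm5 couple to Gq and phospholipase C, and those of Chrm2 and Chrm4 couple to Gi/o and lower cyclic AMP. Chrm4 is best known in striatum from the D1 medium spiny neurons, Chrm1 from medium spiny neurons of both kinds, and Chrm2 from the cholinergic interneurons, where it acts as an autoreceptor. CNO is a synthetic ligand of designer receptors that were engineered from muscarinic receptors.

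The 5 receptor genes are alike in their coding sequence, and the stretch in which they are most alike is shown first because reads from it carry the fewest letters that tell the genes apart. It is a window of 60 bases in the coding exon, from the part that encodes the third transmembrane segment, where acetylcholine binds. The letters are from GENCODE transcripts on GRCm38, 5′ to 3′ along each gene, and capitals mark the 43 bases that are identical in all 5 genes.
Chrm1: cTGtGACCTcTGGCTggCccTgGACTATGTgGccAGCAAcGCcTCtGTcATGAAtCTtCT
Chrm3: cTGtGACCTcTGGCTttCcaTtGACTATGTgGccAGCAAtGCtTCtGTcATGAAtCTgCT
Chrm5: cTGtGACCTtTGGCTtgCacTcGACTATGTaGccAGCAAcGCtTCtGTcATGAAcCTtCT
Chrm2: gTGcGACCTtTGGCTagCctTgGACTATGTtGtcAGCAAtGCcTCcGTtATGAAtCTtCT
Chrm4: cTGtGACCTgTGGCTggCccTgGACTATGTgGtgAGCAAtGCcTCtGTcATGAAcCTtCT
The windows lie in Chrm1 at chr19:8678223-8678282 (plus strand), Chrm3 at chr13:9878523-9878582 (minus strand), Chrm5 at chr2:112480405-112480464 (minus strand), Chrm2 at chr6:36523494-36523553 (plus strand) and Chrm4 at chr2:91927557-91927616 (plus strand). Over the whole coding sequence Chrm2 and Chrm4, the pair that couples to Gi/o, are identical at 62.69% of aligned bases. Over the 10 pairs this identity ran from 55.08% (Chrm4 and Chrm5) to 63.56% (Chrm1 and Chrm5), and the longest run of identical bases was 29, between Chrm1 and Chrm4.

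The IP libraries held 52.1 to 61.5 M (mega) reads assigned to genes and the input libraries 32.8 to 40.3 M, and values are read numbers scaled to a common library size (CPM) or log2 of these. The capture was checked on marker lists. The 10 astrocyte markers summed to 27680 to 33460 CPM in vehicle IP and to 2821 to 2984 CPM in vehicle input. The 6 markers of D1 medium spiny neurons summed to 328.8 to 370.6 CPM in vehicle IP and to 910.8 to 1080 CPM in vehicle input, and those of D2 medium spiny neurons to 508.3 to 583.1 and 1466 to 1947 CPM. The 9 markers of cholinergic interneurons summed to 334.5 to 444.3 CPM in vehicle IP and to 58.7 to 95.1 CPM in vehicle input. Higher sums in IP were also found for the 8 markers of GABAergic interneurons, at 927.7 to 1054 against 228.4 to 272.3 CPM, and for the 6 ependymal markers, at 189.6 to 263.6 against 36.5 to 45.2 CPM. The sum of the 6 mural cell markers was higher too, at 236.5 to 246.3 against 106.4 to 111 CPM. Its members went both ways, with 3 called higher and 2 lower in limma. The sum of the 5 oligodendrocyte precursor markers was also higher, at 287.8 to 334.9 against 193.4 to 209.8 CPM, with 2 called higher and 1 lower. Over all genes tested 37.6% were called higher and 37.3% lower. The 8 oligodendrocyte markers overlapped, at 5980 to 14300 against 5274 to 6560 CPM. The 7 microglial markers were lower in IP, at 23.15 to 48.38 against 514.6 to 1411 CPM. The 6 endothelial markers were lower as well, at 13.23 to 17.2 against 82.99 to 92.6 CPM. None of these markers was at 0 reads in a group. In bulk RNA of this kind, fewer cells of a type and less RNA per cell cannot be told apart.

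Of the 6 genes, Chrm4, Chrm2 and Mdk had every IP library above every input library in both sets of mice. Over all genes tested this held for 34.6% in vehicle mice and 37.5% in CNO mice. Chrm1 had every IP library below every input library in both sets, as did 34.5% of all genes in vehicle mice and 32.6% in CNO mice. For Chrm3 and Chrm5 the IP and input libraries overlapped. These counts are read no further, since the genes were chosen on this ratio.

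**Figure D1:**
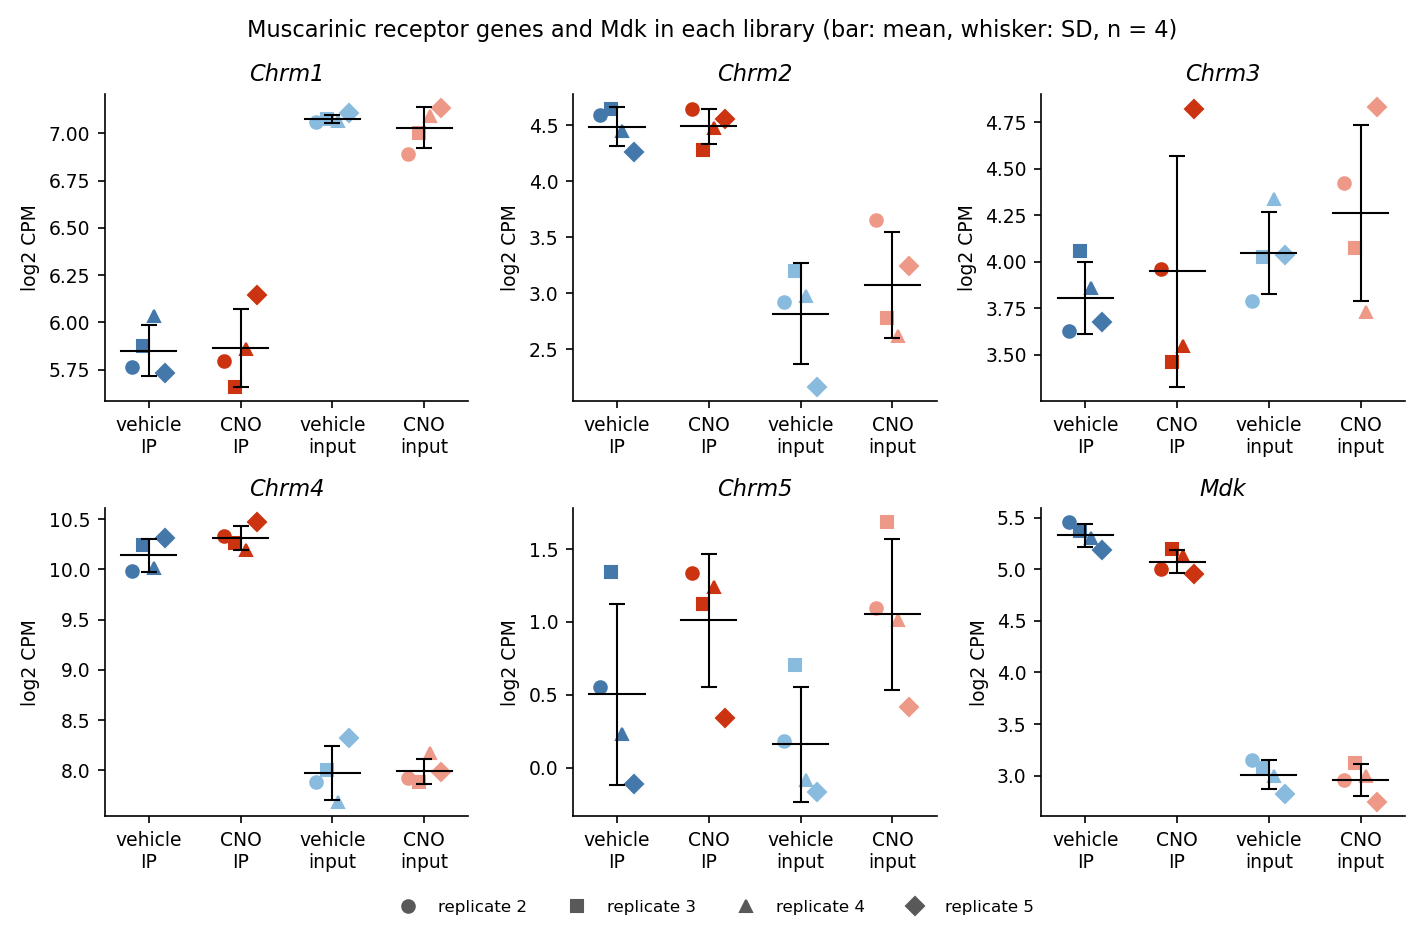
Log2 CPM (vertical axis) of the 5 muscarinic receptor genes and Mdk in the 16 libraries, by group, with a symbol for each replicate number, a bar at the group mean and a whisker of 1 SD (n = 4). Vertical axes differ between panels; Chrm4, Chrm2 and Mdk stand higher in IP, Chrm1 stands lower, and replicate 5 of the CNO mice stands highest for Chrm3 in both kinds of RNA.

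Chrm4, the Gi/o-coupled M4 receptor gene, lies on the plus strand of chromosome 2 (GRCm38, GENCODE 91927249 to 91928688). In vehicle IP its level was 1013, 1209, 1038 and 1276 CPM in replicates 2 to 5. In vehicle input it was 236.7, 256.7, 205.6 and 319 CPM. Every IP library stood far above every input library. In CNO IP it was 1294, 1228, 1167 and 1417 CPM, and in CNO input 242.7, 236.5, 287.8 and 253.4 CPM. The log2 ratio of IP to input was 2.17 (SE 0.13, 4.49-fold) in vehicle mice and 2.32 (SE 0.08, 5.01-fold) in CNO mice. Within single mice the ratio ran from 4.00-fold in vehicle replicate 5 to 5.05-fold in vehicle replicate 4, and from 4.06-fold in CNO replicate 4 to 5.59-fold in CNO replicate 5. Chrm4 thus lay on the other side from the D1 medium spiny neuron markers, of which 5 of 6 were lower in IP in vehicle mice, as were 37.3% of all genes tested. Drd1a, the D1 dopamine receptor gene, had 161 ± 6.85 CPM (SD, n = 4) in vehicle IP and 511.8 ± 51.6 CPM in vehicle input, while the astrocyte enzyme gene Aldh1l1 had 640.4 ± 44.2 and 85.3 ± 13.3 CPM. Marker sums of cholinergic and GABAergic interneurons and of ependyma stood higher in IP as well, as given above. The part of any of these cell types in the Chrm4 ratio, or of a receptor transgene, were one present, was not tested.

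Chrm2, the gene of the Gi/o-coupled M2 receptor on chromosome 6, was measured at 24.1, 25.0, 21.8 and 19.1 CPM in vehicle IP and at 7.59, 9.20, 7.88 and 4.47 CPM in vehicle input. It was at 25.0, 19.4, 22.3 and 23.5 CPM in CNO IP and at 12.6, 6.86, 6.12 and 9.49 CPM in CNO input. The input libraries varied most, with CNO input replicate 2 the highest and vehicle input replicate 5 the lowest. The log2 ratio of IP to input was 1.67 (SE 0.21, 3.18-fold) in vehicle mice and 1.42 (SE 0.21, 2.67-fold) in CNO mice, and single mice ranged from 1.98-fold (CNO replicate 2) to 4.27-fold (vehicle replicate 5). Markers of cholinergic interneurons, the cells Chrm2 is best known from, also stood higher in IP, 9 of 9 in vehicle mice and 8 of 9 in CNO mice, against 37.6% and 40.0% of all genes tested in limma at an adjusted p under 0.05. The choline acetyltransferase gene Chat had 119.2 ± 14.0 CPM in vehicle IP and 20.4 ± 4.74 CPM in vehicle input. Their part in the Chrm2 ratio was not tested.

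Chrm1, the Gq-coupled M1 receptor gene on chromosome 19, lay on the other side, lower in IP than in input. It had 54.3, 58.7, 65.5 and 53.1 CPM in vehicle IP and 133.3, 134.7, 133.8 and 138 CPM in vehicle input. In CNO mice it had 55.5, 50.5, 58.1 and 70.8 CPM in IP and 118.8, 128.2, 136.7 and 140.3 CPM in input. The vehicle input libraries were within a few CPM of each other, the tightest group among the receptor genes. The log2 ratio of IP to input was -1.23 (SE 0.07, or 0.428-fold) in vehicle mice and -1.17 (SE 0.10, 0.446-fold) in CNO mice, and the 8 single mice lay between 0.385-fold and 0.505-fold. Markers of D2 medium spiny neurons were lower in IP for 6 of 6 genes in both sets of mice, against 37.3% and 35.1% of all genes. Their part in the Chrm1 ratio was not tested.

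Chrm3, the Gq-coupled M3 receptor gene on chromosome 13, had 12.4, 16.6, 14.5 and 12.8 CPM in vehicle IP and 13.8, 16.3, 20.2 and 16.4 CPM in vehicle input. In CNO mice it had 15.6, 11.0, 11.7 and 28.3 CPM in IP and 21.5, 16.8, 13.3 and 28.4 CPM in input. CNO replicate 5 was the highest library in both kinds of RNA, well above the other 3 CNO libraries of its kind. The log2 ratio of IP to input was -0.24 (unpaired SE 0.13) in vehicle mice and -0.32 (unpaired SE 0.33) in CNO mice, and in both sets the libraries overlapped. Within single mice the ratio ran from 0.719-fold to 1.02-fold after vehicle and from 0.655-fold to 0.996-fold after CNO. The SD of these log2 ratios was 0.22 in vehicle mice and 0.27 in CNO mice.

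Chrm5, the gene of the Gq-coupled M5 receptor on chromosome 2, had the lowest values. It had 1.47, 2.53, 1.17 and 0.925 CPM in vehicle IP and 1.14, 1.63, 0.943 and 0.889 CPM in vehicle input. It had 2.52, 2.18, 2.36 and 1.27 CPM in CNO IP and 2.14, 3.21, 2.02 and 1.33 CPM in CNO input. Replicate 5 was the lowest library of each of the 4 groups. The log2 ratio of IP to input was 0.34 (unpaired SE 0.33) in vehicle mice and -0.04 (unpaired SE 0.29) in CNO mice, and in both sets the libraries overlapped. Within single mice the ratio ran from 1.04-fold to 1.55-fold after vehicle and from 0.68-fold to 1.18-fold after CNO. The SD of these log2 ratios was 0.24 in vehicle mice and 0.37 in CNO mice.

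Mdk, on the minus strand of chromosome 2 (91929805 to 91932297), had 43.8, 41.3, 39.5 and 36.4 CPM in vehicle IP and 8.91, 8.42, 7.98 and 7.06 CPM in vehicle input. In CNO mice it had 32.1, 36.7, 34.9 and 31.0 CPM in IP and 7.78, 8.71, 7.99 and 6.70 CPM in input. IP was far above input in every mouse, and the spread within each group was small. The log2 ratio of IP to input was 2.32 (SE 0.09, 4.98-fold) in vehicle mice and 2.12 (SE 0.09, 4.33-fold) in CNO mice. The 4 vehicle mice lay between 4.91-fold and 5.16-fold and the 4 CNO mice between 4.13-fold and 4.63-fold. How many of all genes part the mice by injection in this way was not counted. The difference of -0.20 on the log2 scale (SE 0.13) did not pass the interaction test in limma over 16287 genes (adjusted p = 0.554, and 0.156 with the mouse as a block).

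**Figure D2:**
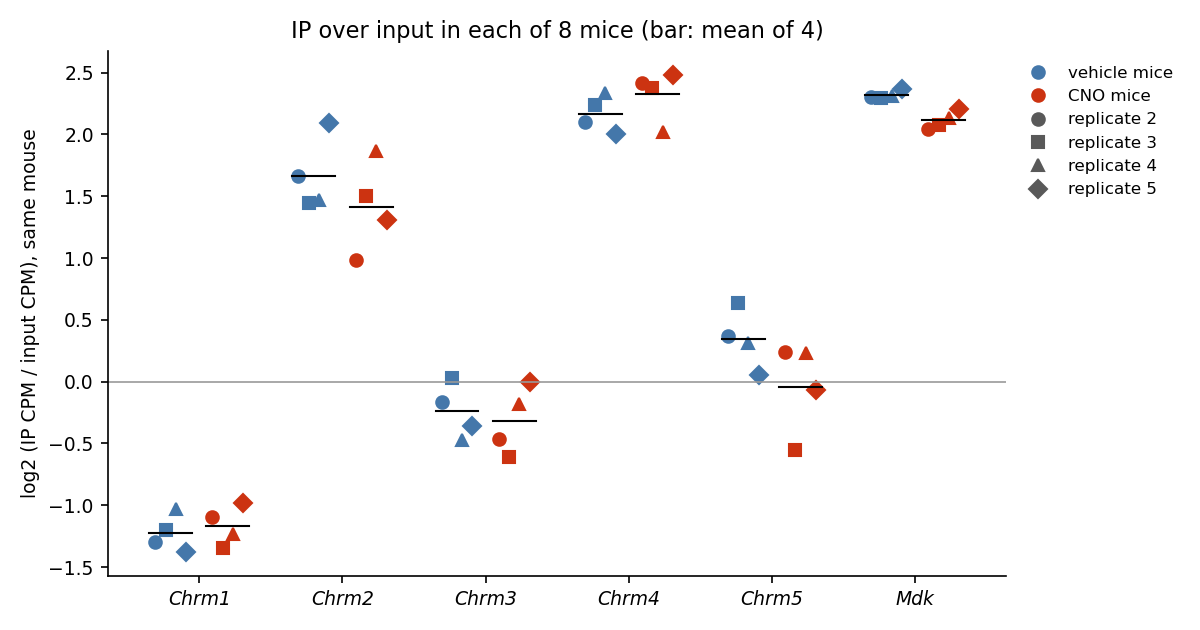
Log2 ratio of IP to input CPM within each of the 8 mice (vertical axis) for the 6 genes, in vehicle and CNO mice, with a bar at the mean of 4 mice. Chrm4, Chrm2 and Mdk lie above the line at 0 in all mice and Chrm1 lies below it in all. The Mdk ratios run from 4.13-fold to 4.63-fold in CNO mice and from 4.91-fold to 5.16-fold in vehicle mice. This difference did not pass the interaction test in limma (adjusted p = 0.554, and 0.156 with the mouse as a block).

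These ratios depend on how the libraries are scaled to each other. Upper quartile scaling in place of the deposited scaling shifted the median gene by -0.16 on the log2 scale in vehicle mice and by -0.23 in CNO mice, and scaling by total reads by -0.27 and -0.31. The share of higher among all called genes, 50.2% and 53.2% as deposited, became 40.5% and 39.7% with the upper quartile and 34.1% and 34.7% with total reads. Chrm4 stayed above input under both, at a log2 ratio of 1.90 in vehicle mice and 2.01 in CNO mice with total reads, and Chrm2, Mdk and Chrm1 kept their directions too.

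Levels of different genes can be set side by side only per length. Per kilobase of annotated exon (GENCODE, union of exons), Chrm4 had 787.5 ± 89.2 CPM per kilobase in vehicle IP (SD, n = 4), followed by Chrm1 with 8.93 ± 0.86, Chrm2 with 3.72 ± 0.44, Chrm3 with 2.25 ± 0.31 and Chrm5 with 0.954 ± 0.443. The ranges of neighbours in this order did not overlap. Per kilobase of the longest transcript, however, Chrm2 (3.37 to 4.41) and Chrm3 (2.86 to 3.83) overlapped in vehicle IP. In vehicle input the order was Chrm4 with 176.7 ± 33.2 CPM per kilobase, Chrm1 with 20.8 ± 0.32, Chrm3 with 2.67 ± 0.42, Chrm2 with 1.20 ± 0.33 and Chrm5 with 0.720 ± 0.212, and Chrm2 and Chrm5 overlapped. In CNO IP Chrm2 (3.72 ± 0.39) and Chrm3 (2.66 ± 1.28) overlapped as well. By their means Chrm2 and Chrm3 thus changed places between the kinds of RNA. Chrm4 made up 98.0% ± 0.31 of the summed level of the 5 receptors in vehicle IP and 87.2% ± 2.08 in vehicle input, with 98.2% and 87.1% after CNO. These are shares of reads counted under each symbol, in which RNA of a receptor transgene, were one present, cannot be told apart.

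The length of Chrm4 weighs on these shares, because its GENCODE model holds 1440 bases and little beyond the coding sequence, while those of Chrm1, Chrm2 and Chrm3 hold 6487, 6053 and 6253 bases. RefSeq places Chrm4 from 91922189 to 91929835, and which annotation was counted is not given in the sources used here. With coding length for all genes, a choice made after the data were seen, Chrm4 made up 92.1% ± 1.16 in vehicle IP and 60.6% ± 4.42 in vehicle input, and Chrm1 4.95% ± 0.81 and 34.0% ± 3.27. Chrm4 had the highest level and Chrm1 the next in all 4 groups with both lengths. Mdk had 30.4 ± 2.37 CPM per kilobase of exon in vehicle IP and 6.11 ± 0.59 in vehicle input.

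The Chrm4 and Mdk genes run towards each other, and in RefSeq their 3′ ends overlap by 31 bases, whereas the GENCODE models lie 1116 bases apart. Whether the counting used strand is not given, so reads in the overlap may have gone to either gene. The values of both were therefore compared in each library. Chrm4 had 23.13, 29.25, 26.27 and 35.06 times the reads of Mdk in vehicle IP and 40.26, 33.48, 33.41 and 45.74 times in CNO IP. In vehicle input the factor was 26.6, 30.51, 25.79 and 45.25, and in CNO input 31.22, 27.17, 36.05 and 37.84. Mdk never had more than a small fraction of the Chrm4 reads. Replicate 5 had the highest factor in each of the 4 groups, with Mdk at its lowest value of each group there. The log2 difference of Chrm4 and Mdk was 5.24 ± 0.22 in CNO IP and 4.81 ± 0.25 in vehicle IP, 0.43 apart (exact two-sided permutation test, p = 0.0857, adjusted over 2 tests 0.171). In input it was 5.03 ± 0.22 and 4.96 ± 0.37, 0.07 apart (exact permutation p = 0.743, adjusted 0.743). With 4 against 4 libraries the smallest p is 0.0286. Leaving out 1 library moved the input difference between -0.02 and 0.25.

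**Figure D3:**
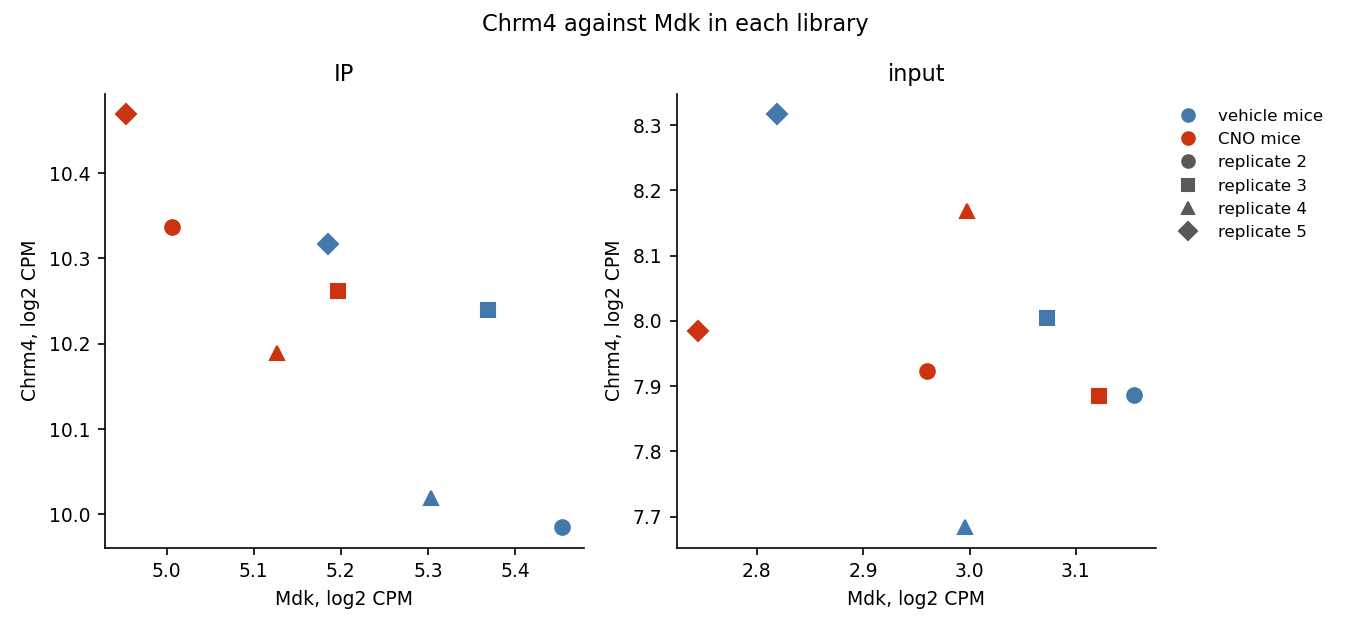
Chrm4 (vertical axis, log2 CPM) against Mdk (horizontal axis, log2 CPM) in each IP library (left) and each input library (right), with colour for the injection and symbol for the replicate number. In IP the CNO libraries lie at lower Mdk and on average higher Chrm4, with the CNO and vehicle libraries overlapping on both axes.

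The other protein-coding genes beside Chrm4 were mostly near or below 0 in this ratio. In vehicle mice the IP to input ratio on the log2 scale was -0.06 (SE 0.05) for Ambra1 (which was past the threshold only with upper quartile or total read scaling, at -0.21 and -0.32), -0.55 (SE 0.08) for Harbi1 and -0.22 (SE 0.06) for Atg13 on the one side. On the far side of Mdk it was -0.41 (SE 0.08) for Dgkz, which encodes a diacylglycerol kinase, and 3.36 (SE 0.22) for Creb3l1, a transcription factor gene. Creb3l1 was the only one of these 5 genes past the threshold on CNO in IP, where it was higher, at 8.11 against 6.34 CPM (log2 fold change 0.36, SE 0.09, limma adjusted p = 0.0271). That call was kept on leaving out vehicle IP replicate 3 or 5 and lost on leaving out any 1 of the other 6 libraries, where the adjusted p rose as far as 0.0840. With 10.2% of all genes called higher and 7.07% lower in this comparison, 1 of 5 is near the background.

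CNO was then compared with vehicle in the captured RNA, which asks what the injection changed in the astrocyte ribosome fraction. Of the 6 genes only Mdk passed the test. It was lower after CNO, at a mean of 33.7 against 40.3 CPM (log2 fold change -0.26, SE 0.07, 95% interval -0.42 to -0.09, limma adjusted p = 0.0418 over 15598 genes), and the groups overlapped, with CNO IP replicate 3 at 36.7 and vehicle IP replicate 5 at 36.4 CPM. In the same comparison 10.2% of all genes were called higher and 7.07% lower, so 1 of 6 is near the background. The call was lost without the trend and robust settings (adjusted p = 0.0649). Of the 8 libraries left out in turn, 6 ended the call, namely replicates 2, 4 and 5 of CNO IP and replicates 2, 3 and 4 of vehicle IP (0.0719 to 0.122). Leaving out replicate 3 of CNO IP (0.0327) or replicate 5 of vehicle IP (0.0170) kept it. The share of higher among all called genes, 59.2%, was 38.6% with the upper quartile and 44.6% with total reads, where Mdk stayed lower (adjusted p = 0.0203 and 0.0220).

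Markers of cell types were read beside this change. The summed level of the 6 mural cell markers was 165.2 to 199.8 CPM in CNO IP and 236.5 to 246.3 CPM in vehicle IP, without overlap. Among them Pdgfrb fell (-1.32, SE 0.16, adjusted p = 0.000713), Tagln rose (1.33, SE 0.26, adjusted p = 0.00841) and 4 did not pass. In input the mural sums did not overlap either, at 84.73 to 104.7 CPM after CNO and 106.4 to 111 CPM after vehicle. Pdgfrb fell there too (-0.52, SE 0.08, limma adjusted p = 0.0164). The 6 endothelial markers summed to 58.79 to 73.61 CPM in CNO input and 82.99 to 92.6 CPM in vehicle input. In IP their sums overlapped, at 12.03 to 13.71 and 13.23 to 17.2 CPM. How many of all genes part by injection was not counted. The 6 ependymal markers summed to 151.7 to 192.7 CPM in CNO IP and 189.6 to 263.6 CPM in vehicle IP, with overlap, and 0 passed. Of the 10 astrocyte markers 2 fell, Gja1 (-0.30, SE 0.08, adjusted p = 0.0247) and S100b (-0.22, SE 0.06, adjusted p = 0.0461), and 8 did not pass, with sums of 28820 to 32260 CPM in CNO IP and 27680 to 33460 CPM in vehicle IP. Of the 6 markers of D1 medium spiny neurons 1 fell, Eya1 (-0.38, SE 0.08, adjusted p = 0.0104). Over all genes 10.2% were called higher and 7.07% lower. Their part in the Mdk change was not tested.

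Of the 5 receptor genes 0 passed in IP with limma, 0 at an unadjusted p under 0.05 and 0 with limma-voom. In the main test 10.2% of all genes were called higher and 7.07% lower, so 0 of 5 is near the background. Chrm4 had a log2 fold change of 0.17 (SE 0.09, 95% interval -0.04 to 0.38, adjusted p = 0.253), higher on average but with overlapping groups. Chrm1 had 0.01 (SE 0.11, interval -0.23 to 0.26) and Chrm2 0.01 (SE 0.10, interval -0.23 to 0.24), and both took a minus sign with upper quartile and total read scaling. Chrm3 had 0.14 (SE 0.28, interval -0.49 to 0.78) and Chrm5 0.51 (SE 0.33, interval -0.25 to 1.27). The intervals of Chrm1 and Chrm2 are narrow, while those of Chrm3, where CNO IP replicate 5 stood high, and of Chrm5 hold a wide range of changes.

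**Figure D4:**
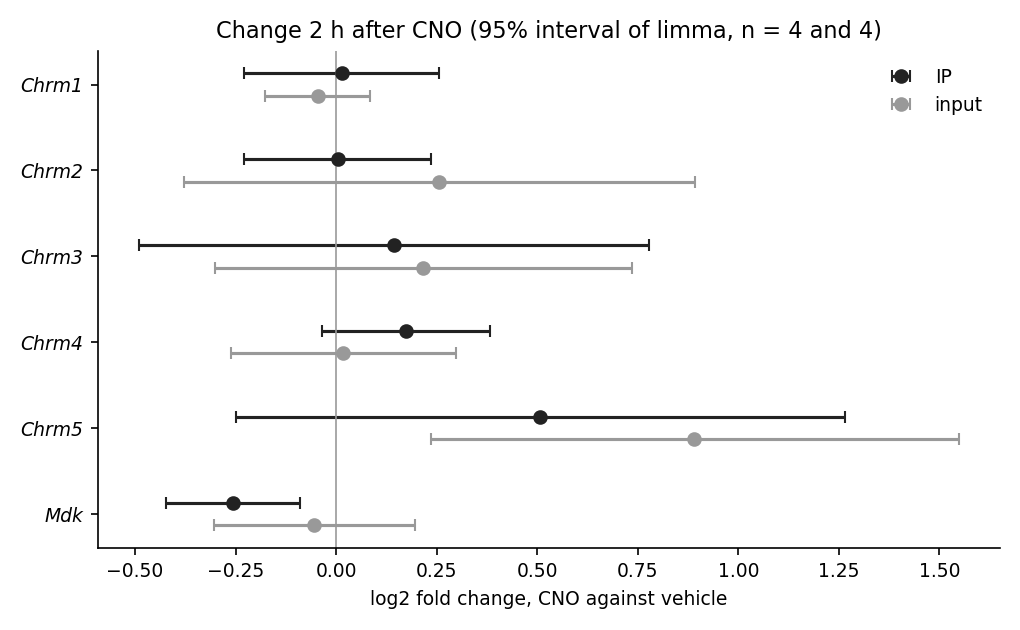
Log2 fold change of CNO against vehicle (horizontal axis) of the 6 genes in IP (black) and input (grey), with the 95% interval of limma (n = 4 and 4 libraries). The Mdk interval in IP, -0.42 to -0.09, and the Chrm5 interval in input, 0.24 to 1.55, leave out 0 before adjustment over all genes, and the other 10 intervals hold it.

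In whole-tissue input 0 of the 6 genes passed in limma after adjustment over 15825 genes, and 0 passed with limma-voom, where 0.815% of all genes were called higher and 0.183% lower in the main test. At an unadjusted p under 0.05 there was 1, Chrm5, with 1.15 CPM on average after vehicle and 2.18 after CNO (log2 fold change 0.89, SE 0.30, 95% interval 0.24 to 1.55, adjusted p = 0.298). Its highest library was CNO input replicate 3, at 3.21 CPM, and its groups overlapped. Chrm4 had 0.02 (SE 0.12, interval -0.26 to 0.30), Chrm1 -0.05 (SE 0.06), Chrm2 0.26 (SE 0.28), Chrm3 0.22 (SE 0.23) and Mdk -0.06 (SE 0.11, adjusted p = 0.936). The interaction of CNO with the kind of RNA was past the threshold for 0 of 6 genes in limma (4.18% of all genes were called higher and 0.571% lower), for 0 at an unadjusted p under 0.05 and for 0 with limma-voom. With the mouse as a block, which took the calls over all genes from 680 higher and 93 lower to 1018 and 222, it was past the threshold for 0 of 6 as well, and 1, Mdk, had an unadjusted p under 0.05 in limma (adjusted p = 0.156). It was 0.16 for Chrm4 (SE 0.16, interval -0.19 to 0.50) and -0.38 for Chrm5 (SE 0.47, interval -1.38 to 0.61).

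The genes that make, carry and break down acetylcholine form the list nearest to the receptors, and Chat, Slc18a3 and Slc5a7 also stand among the cholinergic interneuron markers. Of its 9 genes 0 passed in either direction on CNO in IP, with a median log2 fold change of -0.11 against -0.01 over all genes, and 0 passed in input. At an unadjusted p under 0.05 there was 1 in each, the choline transporter-like gene Slc44a2, and limma-voom called 0. Over all genes 10.2% were called higher and 7.07% lower in IP, and 0.815% and 0.183% in input. In vehicle mice 8 of the 9 were higher in IP than in input and 0 lower (37.6% and 37.3% of all genes), with a median log2 ratio of 1.55 against 0.00 over all genes. The largest were Chat (2.57), the vesicular acetylcholine transporter gene Slc18a3 (2.48) and the choline transporter gene Slc5a7 (2.28). In CNO mice 8 were higher as well (40.0% of all genes), among them Chat (2.53), Slc18a3 (2.30) and Colq (2.26), whose product anchors acetylcholinesterase.

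Of the 17 genes of nicotinic receptor subunits and their partner Lynx1, 14 had values and 10 were tested on CNO in IP, where 0 passed in limma, 1 (Lynx1) had an unadjusted p under 0.05 and limma-voom called 0. The same counts, with the same gene, were found in input. In vehicle mice 1 of 11 tested was higher in IP, Chrna3 (1.28), and 4 were lower, among them Chrna10 (-1.91), Chrna5 (-0.71) and Chrna7 (-0.47), against 37.6% higher and 37.3% lower of all genes. In CNO mice 2 of 10 were higher, Chrna3 (1.25) and Chrnb4 (1.08, not past the threshold with total read scaling), and 2 were lower, Chrna7 (-0.48) and Lynx1 (-0.32), against 40.0% and 35.1% of all genes. The nicotinic genes thus stood on both sides, with a median log2 ratio of -0.12 in vehicle mice and 0.01 in CNO mice, where the medians over all genes were 0.00 and 0.04.

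Downstream of Chrm1, Chrm3 and Chrm5 lies the Gq, phospholipase C and inositol trisphosphate arm. Of its 20 genes 0 passed in limma on CNO in IP and 0 in input. At an unadjusted p under 0.05 there were 1 (Gna15) and 2 (Gnaq and Prkce), and limma-voom called 0 in both. Among all genes tested on CNO, 10.2% were called higher and 7.07% lower in IP, and 0.815% and 0.183% in input. In both sets of mice 6 were higher in IP than in input and 12 lower, where 37.6% and 37.3% of all genes were so in vehicle mice and 40.0% and 35.1% in CNO mice. In vehicle mice the largest of the higher genes were the phospholipases Plcb3 (2.45) and Plcb4 (1.67) and the inositol trisphosphate receptor Itpr2 (2.27), which is the one best known from astrocytes. The lowest were the G protein gene Gna15 (-4.23), Plcb2 (-1.55) and Itpr3 (-1.51).

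Downstream of Chrm2 and Chrm4 lies the Gi/o arm, listed with Golf, the adenylyl cyclases and the potassium channels that these receptors open. Of its 19 genes 1 fell on CNO in IP, the Gi alpha subunit Gnai2, at 220.6 against 258.2 CPM (log2 fold change -0.22, SE 0.06, limma adjusted p = 0.0429), and 18 did not pass. With 10.2% of all genes called higher and 7.07% lower, 0 and 1 of 19 are not above the background. The groups overlapped, and the call was kept without vehicle IP replicate 3 and lost without each of the other 7 libraries (up to 0.127). It was also lost without the trend and robust settings. In vehicle mice 7 of the 19 were higher in IP, among them the cyclase Adcy2 (2.01), the Go alpha subunit Gnao1 (1.43) and Gnai2 (1.39), and 8 were lower, among them the striatal cyclase Adcy5 (-1.21), the channel gene Kcnj6 (-1.03) and Gnal, the Golf alpha subunit of medium spiny neurons (-0.90). Both counts are near the shares of all genes, 37.6% and 37.3%.

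Receptor kinases, arrestins and RGS proteins, which end G protein signals, held the largest CNO change among the genes of these lists past the threshold. Of 21 tested, 3 rose in IP and 1 fell, near the 10.2% and 7.07% of all genes. Rgs2, whose product acts on Gq, rose from 48.6 to 133.4 CPM (log2 fold change 1.46, SE 0.09, limma adjusted p = 5.02e-06), without overlap and past the threshold without any 1 of the 8 libraries. Its CNO effect also differed from that in input (interaction 1.61, SE 0.19, adjusted p = 5.84e-05). The receptor kinase genes Adrbk2 (0.26, SE 0.07, adjusted p = 0.0344) and Grk6 (0.21, SE 0.05, adjusted p = 0.0201) rose and Rgs6 (-0.19, SE 0.05, adjusted p = 0.0377) fell. In input Rgs11 fell (-0.58, SE 0.11, adjusted p = 0.0479), where 0.183% of all genes were called lower. The interaction was past the threshold for Grk6 as well (0.29, adjusted p = 0.0262). In vehicle mice 4 of the 21 were higher in IP, among them Rgs6 (1.57), and 16 were lower, among them Rgs2 (-1.89), against 37.6% and 37.3% of all genes.

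Except for Rgs2, these calls each hung on single libraries. That of Adrbk2 was kept only on leaving out replicate 4 of CNO IP or replicate 3 of vehicle IP, and that of Rgs6 only without vehicle IP replicate 5. That of Grk6 ended on leaving out replicate 2, 4 or 5 of CNO IP or replicate 2 of vehicle IP. Its interaction ended on leaving out replicate 2 or 5 of CNO IP, replicate 2 or 5 of vehicle input, or replicate 2 of vehicle IP. That of Rgs11 was kept only without CNO input replicate 4. The highest adjusted p on leaving out 1 library was 0.105 for Adrbk2, 0.110 for Rgs6, 0.0690 for Grk6 (0.0652 for its interaction) and 0.188 for Rgs11. Adrbk2 and Grk6, the interaction included, were not past the threshold with upper quartile or total read scaling. Without the trend and robust settings Adrbk2, Rgs6 and Rgs11 were not past it.

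For Mdk the list of its relatives and binding partners was read in the same way. Of 15 genes 2 rose on CNO in IP, the glypican Gpc2 (0.51, SE 0.15, adjusted p = 0.0496) and nucleolin, Ncl (0.20, SE 0.05, adjusted p = 0.0282), and 2 fell, the integrin Itga6 (-0.33, SE 0.09, adjusted p = 0.0316) and the proteoglycan Cspg5 (-0.26, SE 0.08, adjusted p = 0.0456). Over all genes 10.2% were called higher and 7.07% lower. Gpc2 was kept only without vehicle IP replicate 5, Itga6 and Cspg5 were lost without 6 of 8 libraries, and Ncl without 5. Those that kept Itga6 past the threshold were CNO IP replicate 4 and vehicle IP replicate 2, those for Cspg5 were vehicle IP replicates 3 and 5, and those for Ncl were CNO IP replicate 3 and vehicle IP replicates 3 and 5. The highest adjusted p on leaving out 1 library was 0.116 for Gpc2, 0.0806 for Itga6, 0.138 for Cspg5 and 0.0925 for Ncl. Gpc2 and Ncl were not past the threshold with upper quartile or total read scaling, nor Gpc2 with limma-voom (0.0501) or with no filter on low values. Itga6 and Cspg5 were not past it without the trend and robust settings. In input 0 of the 15 passed, 3 had an unadjusted p under 0.05 (Cspg5, Ncl and Sdc4) and limma-voom called 0. There 0.815% of all genes were called higher and 0.183% lower. In vehicle mice 12 of the 15 were higher in IP than in input and 0 lower (37.6% and 37.3% of all genes), among them the midkine-binding proteins Lrp2 (3.20), Ptprz1 (3.16) and Sdc4 (2.46). In CNO mice 13 were higher and 1, Itga4, was lower (-1.08), against 40.0% and 35.1% of all genes.

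The genes with the pattern most like each member were looked up among 14147 genes with a mean of at least 1 CPM, by the root mean square difference of log2 CPM, each centred on its own mean, over the 16 libraries. For Chrm4 they were Aen (0.14), Zak (0.17), Dmpk (0.17), Eda2r (0.18) and Kank2 (0.18), against a spread of Chrm4 around its own mean of 1.14. For Mdk they were Tst (0.10), Acsl6 (0.10) and Ntn4 (0.10). For Chrm2 they were Plcb4 (0.10), Ccdc136 (0.15) and Mdga1 (0.15), and for Chrm1 they were Cdk5r2 (0.08), B4galnt1 (0.08) and Rtn4rl1 (0.08). For Chrm3 they were the nicotinic subunit gene Chrna4 (0.12), Sh3gl2 (0.14) and Basp1 (0.15). For Chrm5, the gene with the fewest reads, the nearest were Esrrg (0.38), Mpp7 (0.42) and Shh (0.43), against a spread of its own of 0.57. Plcb4 also stands in the Gq list above, and Chrna4 in the nicotinic list. This likeness takes in both IP and input libraries, and so the ratio between them on which the members were chosen. Whether these genes vary together within a group was not tested.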

How the data were processed

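Gene values of 16 libraries were used, with groups and mouse codes read from the titles and injection labels. The deposited values are log2 CPM made by the authors. The submitters' processing notes list STAR, HTSeq, limma and bcl2fastq 2.17 and the build mm10 (GRCm38). The other versions, the annotation and any strand setting: not given in the sources used here. Whole reads, within 0.01 read, were recovered from 100% of values once a library-scaled prior of 0.25 reads was taken off. Of 17098 lines per library 1 duplicate was dropped, and 2 lines that share a symbol were left out of naming. The depth is in the results.

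Comparisons were fitted to these log2 values with limma 3.58.1 under R 4.3.3 (lmFit, then eBayes with trend and robust settings), each on the groups it compares. The main fits left the mouse out, so the SEs of the IP to input ratios and of the interaction are unpaired unless a block is named. Benjamini-Hochberg adjustment ran across every gene tested, with 0.05 as threshold. A gene needed 15 or more reads in total and, in 4 or more libraries, a CPM that 10 reads give in the median library. The script was tested on simulated data. Chrm4 minus Mdk was compared by exact permutation (SciPy 1.17.1). Coding sequences were aligned with MAFFT 7.526, from GENCODE vM21 transcripts; RefSeq coordinates are from GRCm38.p6.

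Named beside the 6 genes were, of each list, up to 3 genes past the threshold with the largest change per direction and comparison, 3 neighbours of Chrm4 per side, and the 3 genes (5 for Chrm4) of most alike pattern. The members and lists were chosen with earlier results of these data known. Replicate numbers come from the mouse codes. IP and input of 1 mouse deviated together (r of 0.18 to 0.54), while CNO and vehicle libraries of the same number mostly did not (-0.31 to 0.18). The exception was number 5 in IP, at 0.18 against at most 0.10 with other numbers. Only the mouse was taken to pair samples. Alternatives were upper quartile and total read scaling, a prior count of 2, no filter, no trend or robust settings, limma-voom on recovered reads, a replicate block, gene lengths, and each library left out.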

Additional observations from a re-analysis of the deposited data

How the results depend on the processing

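The fall of Mdk on CNO in IP, the only call among the 6 genes there, rests on a small margin: the count of called genes went from 1 to 0 without the trend and robust settings and with a replicate block (log2 fold change -0.26, adjusted p = 0.0526), and ran from 0 to 1 on leaving out 1 library; the cause was not tested. In input and in the interaction it stayed at 0 under all alternatives run. The replicate numbers were not taken to pair the injections. The block also took the calls over all genes on CNO in IP from 1598 higher and 1102 lower to 1237 and 717. It took those in input from 129 and 29 to 95 and 7, and those of the interaction, where it is the mouse, from 680 and 93 to 1018 and 222. With the block Adrbk2, Creb3l1, Cspg5, Gnai2, Gpc2, Grk6, Ncl, Rgs6 and, in input, Rgs11 were not past the threshold on CNO. The Chrm4 ratio of IP to input moved to 1.90 in vehicle mice with total reads and to 2.10 (upper quartile) and 2.01 (total reads) in CNO mice, and ran from 2.07 to 2.28 and from 2.27 to 2.38 on leaving out 1 library.

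Small CNO effects changed sign. In IP Chrm1 was at -0.0459 with the upper quartile and -0.0278 with total reads, Chrm2 at -0.0549 and -0.0368, and the interaction of Chrm1 at -0.00327 with the upper quartile. On leaving out 1 library the IP values ran from -0.0801 to 0.0829 for Chrm1, -0.0711 to 0.0743 for Chrm2 and -0.15 to 0.31 for Chrm3. In input they ran from -0.0797 to 0.000188 for Chrm1, -0.0788 to 0.13 for Chrm4 and -0.12 to 0.0160 for Mdk, and in the interaction from -0.0344 to 0.13 for Chrm1 and -0.37 to 0.11 for Chrm3. The ratio of IP to input of Chrm5 in CNO mice ran from -0.25 to 0.18. Chrm4 minus Mdk ran from 0.34 to 0.54 in IP and from -0.0193 to 0.25 in input. In the CNO comparisons Chrm5, the gene with the fewest reads of the 6, had the widest intervals; whether depth sets them was not tested.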
